A study of Mus musculus with 3 samples.

Results

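Izumo1r, Cblb, Rnf128, Itch, Dgka and Dgkz encode proteins linked to T cell anergy, and their transcripts were followed through the T cells of NOD islets. The 6 genes were chosen by name, for what is known of them and with earlier results of these data in view, from the 32285 genes counted in each library. The data are 3 single-cell RNA libraries of CD45+ cells, the marker of all leukocytes, from islets of untreated, wildtype NOD females. NOD is a mouse strain in which T cells infiltrate the islets and destroy the beta cells. Per the methods, the mice were 15 to 16 weeks old, and each library pooled the islets of 2 to 3 of them, so that no value belongs to a single mouse. There is 1 group of animals, and every comparison is between kinds of cells of the same library.

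Anergy is a lasting unresponsive state that a T cell enters when its receptor is engaged without costimulation. The membrane protein FR4, the product of Izumo1r, belongs to the folate receptor family, and on CD4 T cells it is found at high level on regulatory T cells and, together with the ecto-enzyme CD73 (the product of Nt5e), on anergic cells. Cblb, Itch and Rnf128 encode the E3 ubiquitin ligases Cbl-b, Itch and GRAIL, which mark signalling proteins for removal and raise the threshold of activation. Dgka and Dgkz encode diacylglycerol kinases alpha and zeta, which convert diacylglycerol, the second messenger that activates Ras and protein kinase C theta downstream of the T cell receptor, to phosphatidic acid.

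Cells were sorted into classes by their raw counts of unique molecular identifiers (UMIs, 1 for each captured RNA molecule). CD8 T cells had at least 1 Cd3e UMI, at least 2 of Cd8a and Cd8b1 together and no Cd4 UMI. CD4 T cells had Cd3e and Cd4 UMIs and none of Cd8a, Cd8b1 or Foxp3, and regulatory T cells (Treg) had Cd3e and Foxp3 UMIs. Each class was split into PD-1+ (at least 1 Pdcd1 UMI) and PD-1- (no Pdcd1 UMI), a rule on RNA that leaves cells with PD-1 protein but no captured Pdcd1 UMI among the PD-1- cells. In all, 10728 T cells fell into the 6 classes: 2133 CD8 PD-1-, 1066 CD8 PD-1+, 3855 CD4 PD-1-, 2003 CD4 PD-1+, 748 Treg PD-1- and 923 Treg PD-1+ cells. A further 4936 B cells, with at least 2 Cd79a UMIs and no Cd3e UMI, served as a control. Cd3d and Ikzf2, which the gates did not use, were looked at as a check. Cd3d is a part of the T cell receptor complex. It averaged between 712 and 841 UMIs for every 1000000 UMIs of the class (CPM) in the T classes and 22.7 in B cells. Ikzf2, the Treg-associated factor Helios, averaged 831 CPM in Treg PD-1- and 949 in Treg PD-1+ cells. It averaged 131 CPM in CD4 PD-1-, 313 in CD4 PD-1+, 105 in CD8 PD-1- and 317 in CD8 PD-1+ cells.

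Replicates 1, 2 and 3 held 5844, 9537 and 11566 cells and 33851381, 74775394 and 80806452 UMIs, with medians of 4230, 6415 and 5521 UMIs per cell. Pairs of libraries shared between 12 and 29 cell barcodes. Replicate 1 stood apart: 161 of 10739 genes were more than 2-fold higher in it than in the mean of the other libraries in all 6 T classes, and Mki67, a marker of dividing cells, lay between 56.6 and 192 CPM in its T classes against 5.88 to 32.0 in the others. Of the 6 genes, Izumo1r and Dgkz were higher in replicate 1 in every T class, Izumo1r by 0.48 to 1.85 on the log2 scale and Dgkz by 0.80 to 1.54. For this reason values are given library by library, in the order of replicates 1, 2 and 3, and fits were repeated without each library. The share of cells with a UMI of Cd79a, a B cell gene, ran from 6.30 to 36.2% over the T classes and libraries. It was highest in Treg PD-1+ cells, at 23.8 to 36.2%. Summed over 5 B cell genes, Cd79a among them, Treg PD-1+ cells held 2498, 1448 and 628 CPM and B cells 6074, 4576 and 3964.

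In the mm10 assembly (GRCm38, GENCODE M21 annotation), Izumo1r (ENSMUSG00000031933) lies on the minus strand at chr9:14885814-14903949, Cblb (ENSMUSG00000022637) on the plus strand at chr16:52031225-52208048, Rnf128 (ENSMUSG00000031438) on the plus strand at chrX:139563316-139673145 and Itch (ENSMUSG00000027598) on the plus strand at chr2:155133509-155226855. Dgka (ENSMUSG00000025357) lies on the minus strand at chr10:128720134-128744855 and Dgkz (ENSMUSG00000040479) on the minus strand at chr2:91932824-91975864. Dgka overlaps the protein-coding gene Pmel and Dgkz the protein-coding gene Gm9821, both on the opposite strand, and Dgkz also holds the miRNA gene Mir6999 on its own strand. The sources used here do not state whether the counting used strand, so reads from those overlaps could not be assigned with certainty.

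The sequences just upstream of an annotated start of Izumo1r and of Rnf128 are shown because these genes differed most between the T cell lineages. They are from RefSeq (GRCm38.p6), run 5′ to 3′ on the strand of the gene, and span chr9:14903950-14904017 (minus strand, the 68 bases before the outermost annotated start of Izumo1r) and chrX:139610370-139610619 (plus strand, the 250 bases before a start of Rnf128). The Rnf128 window lies inside the span of the gene given above, before an inner start. Capitals mark TTTCCA, the reverse complement of TGGAAA, the core recognised by NFAT factors, which act downstream of calcium in the T cell receptor pathway.
Izumo1r: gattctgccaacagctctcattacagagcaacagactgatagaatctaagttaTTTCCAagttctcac
Rnf128: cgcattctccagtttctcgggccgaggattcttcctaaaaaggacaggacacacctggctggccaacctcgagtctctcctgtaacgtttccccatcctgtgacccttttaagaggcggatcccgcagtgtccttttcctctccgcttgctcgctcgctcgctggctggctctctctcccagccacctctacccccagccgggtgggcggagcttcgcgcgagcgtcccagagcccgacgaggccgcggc
Searched on both strands of the 250 bases before each listed start, TGGAAA was in the Izumo1r window and in 3 of 4 Dgka windows, and in none of those of Cblb, Rnf128 and Dgkz, against 18.6% of all 32851 RefSeq promoter windows of that length. The AP-1 motif TGANTCA (6.75% of all windows), the EGR motif GCGNGGGCG (4.70%) and the TCF-1 motif CTTTGAT (3.21%) were in none of the windows of the 5 genes with an entry. Such a match is a string of letters in a window, and binding was not measured.

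Over all T cells, 5 of the 6 genes were higher than in B cells of the same libraries. Sums of UMIs per library were compared by the quasi-likelihood test of edgeR, in which each library formed a block, and adjustment for multiple testing (Benjamini-Hochberg) was over all genes tested. T cells exceeded B cells by 4.77 ± 0.28 (log2 fold change ± SE, adjusted p = 7.5e-05) for Izumo1r, 3.59 ± 0.37 (0.00063) for Rnf128, 1.87 ± 0.09 (3.3e-05) for Dgka, 1.07 ± 0.08 (0.00015) for Cblb and 1.03 ± 0.22 (0.011) for Dgkz. In this comparison 51.1% of all 11843 genes tested passed, so passing was the common outcome. Itch did not differ detectably (-0.02 ± 0.08, adjusted p = 0.84), and its sign turned under other scalings and filters. These 5 differences passed in all 12 alternative analyses.

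**Figure D1:**
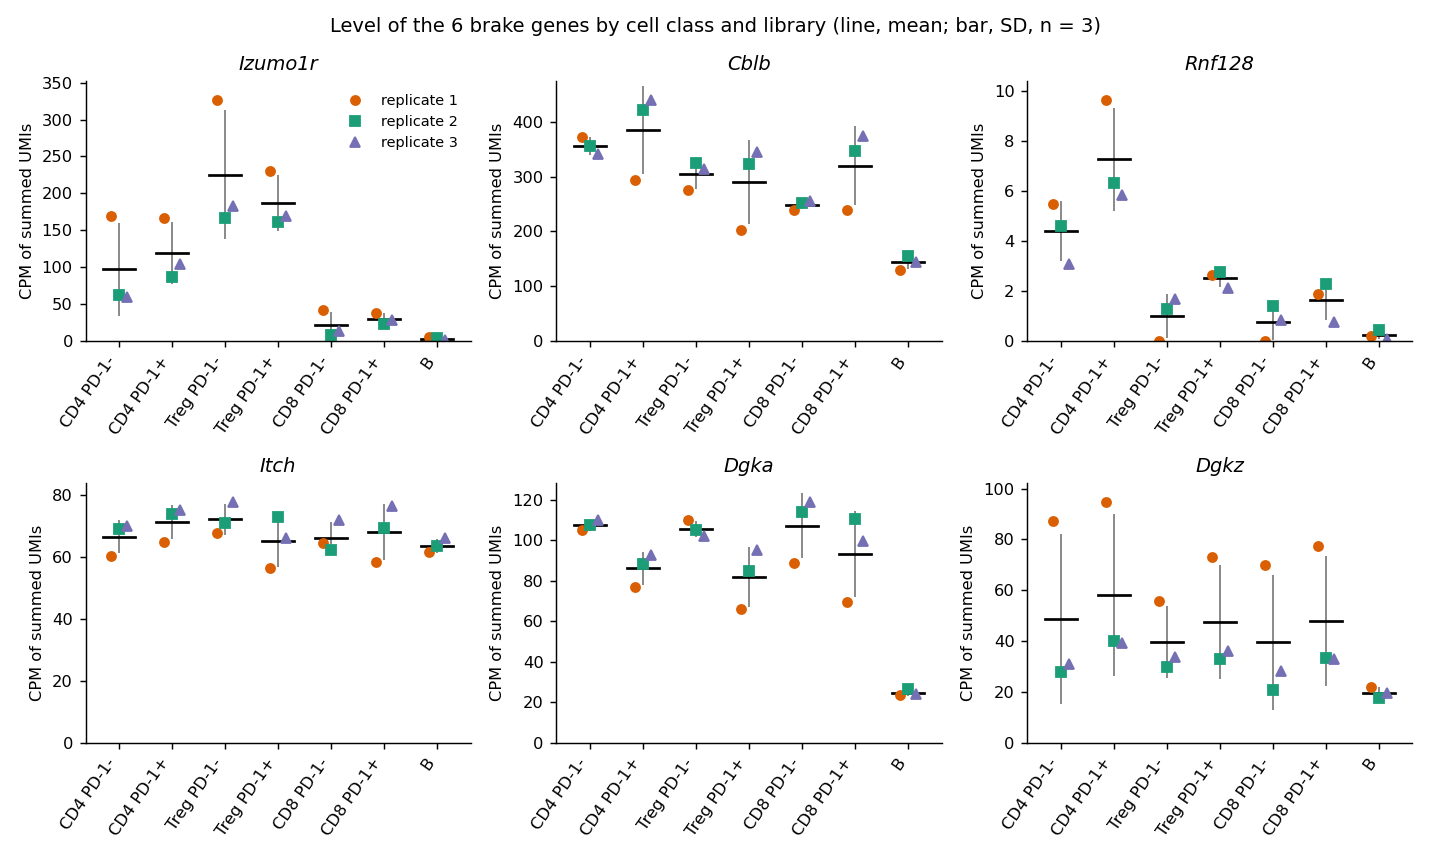
UMIs per 1000000 (CPM) of the 6 genes in the 6 T cell classes and in B cells, 1 panel per gene; each point is 1 of the 3 libraries, the line is their mean and the bar their SD, and every axis starts at 0. Izumo1r is highest in the Treg classes and near 0 in B cells, replicate 1 lies above the others for Izumo1r and Dgkz, and Itch is level across the classes.

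Izumo1r had the widest range over the T classes. In Treg PD-1- cells it was at 326, 167 and 183 CPM, in Treg PD-1+ cells at 231, 162 and 169 CPM, in CD4 PD-1+ cells at 166, 86.4 and 105 CPM and in CD4 PD-1- cells at 169, 61.7 and 60.1 CPM. CD8 PD-1+ cells held 38.4, 22.9 and 28.3 CPM, CD8 PD-1- cells 42.4, 8.62 and 13.5 CPM and B cells 5.21, 3.70 and 1.02 CPM. Within each library every Treg class was above both CD4 classes, every CD4 class was above both CD8 classes, and every CD8 class was above the B cells. By class mean ± SD (n = 3 libraries) the order was Treg PD-1- (226 ± 87.4 CPM), Treg PD-1+ (187 ± 38.0), CD4 PD-1+ (119 ± 41.9), CD4 PD-1- (97.0 ± 62.4), CD8 PD-1+ (29.9 ± 7.86), CD8 PD-1- (21.5 ± 18.3) and B cells (3.31 ± 2.12). The 2 PD-1 classes of each lineage are neighbours in it, and their ranges over the libraries overlap. That reading leaves out the pairing by library, and comparisons within libraries are given below.

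To count cells at equal depth, those with at least 2000 UMIs were thinned to 2000 UMIs and the others were left out. The classes stayed those gated on raw counts, so class membership still depends on depth. The share of cells with an Izumo1r UMI then followed the same order of lineages. It was 43.6, 25.3 and 29.5% in Treg PD-1+ cells, 43.6, 30.3 and 25.8% in Treg PD-1- cells, 30.9, 13.6 and 16.5% in CD4 PD-1+ cells and 25.5, 8.52 and 8.42% in CD4 PD-1- cells. In CD8 PD-1+ cells it was 6.88, 5.40 and 4.50% and in CD8 PD-1- cells 7.08, 1.55 and 1.55%, against 0.779, 0.393 and 0.150% in B cells, the class that should lack the gene, at the same thinned depth. The CD8 shares were above the B cell share in each library. Treg PD-1+ cells exceeded CD4 PD-1+ cells by 12.5 ± 0.66 percentage points (mean ± SD of 3 libraries), higher in 3 of 3. An exact two-sided sign-flip test over 3 libraries cannot give a p below 0.25, the value found here.

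**Figure D2:**
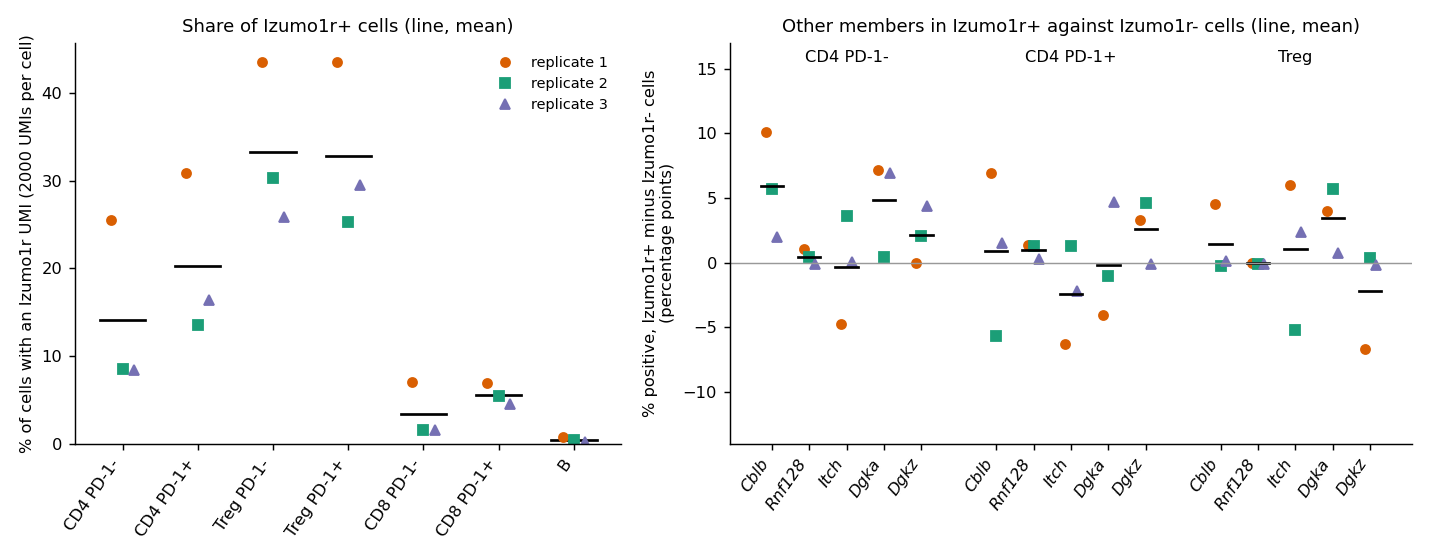
Left, the percent of cells with at least 1 Izumo1r UMI after thinning to 2000 UMIs, by class, with 1 point per library and the mean as a line. Right, the percent of cells with a UMI of each other gene in Izumo1r+ cells minus that in Izumo1r- cells, in percentage points, for CD4 PD-1-, CD4 PD-1+ and Treg cells; the shares fall from Treg through CD4 and CD8 T cells to B cells, and the mean differences on the right lie between -2.40 and 5.95 percentage points.

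Of the 6 genes, Izumo1r and Rnf128 separated CD4 from CD8 T cells in both PD-1 strata. Izumo1r was higher in CD4 cells by 1.86 ± 0.19 on the log2 scale among PD-1+ cells (adjusted p = 1.3e-06) and by 2.21 ± 0.19 among PD-1- cells (1.9e-07), and passed in all 13 alternative analyses of each. Rnf128 was captured rarely, with 0 to 48 UMIs per class and library. It was at 9.61, 6.31 and 5.83 CPM in CD4 PD-1+ cells and at 1.87, 2.26 and 0.745 CPM in CD8 PD-1+ cells, and the ranges did not overlap. How many of all genes were separated in this way was not counted, here or below. The fitted difference was 2.02 ± 0.45 (adjusted p = 0.0036) among PD-1+ and 1.98 ± 0.44 (0.0045) among PD-1- cells. Leaving out replicate 3 ended the call among PD-1+ cells (1.73, adjusted p = 0.12), and leaving out replicate 2 (2.43, 0.070) or replicate 3 (2.13, 0.071) ended it among PD-1- cells.

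Cblb, whose ligase keeps T cells dependent on CD28 costimulation, passed for CD4 over CD8 T cells among PD-1- cells and not among PD-1+ cells. The difference between the strata, tested directly, did not pass (-0.26 ± 0.15, adjusted p = 0.84). CD4 PD-1- cells held 373, 356 and 340 CPM of Cblb and CD8 PD-1- cells 239, 252 and 255 CPM, and the groups did not overlap (0.42 ± 0.10, adjusted p = 0.0094). Without replicate 2 (0.44, adjusted p = 0.12) or replicate 3 (0.46, 0.070) the call was lost. Among PD-1+ cells the values were 293, 422 and 439 CPM in CD4 and 239, 346 and 374 CPM in CD8 cells. CD4 cells were higher in each library, although the groups overlapped between libraries (0.16, adjusted p = 0.33). Dgka, Dgkz and Itch did not pass in either stratum. The genes called thus numbered 2 of 6 among PD-1+ cells, where 16.5% of 10732 genes tested passed, and 3 of 6 among PD-1- cells, where 14.6% passed.

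Treg differed from Foxp3-negative CD4 cells in opposite directions for the surface receptor and for a pair of ligases. Izumo1r was higher in Treg by 0.71 ± 0.16 (adjusted p = 0.0091) among PD-1+ and by 1.19 ± 0.16 (6.3e-05) among PD-1- cells, while Cblb was lower (-0.41 ± 0.11, 0.023, and -0.37 ± 0.11, 0.030), as was Rnf128 (-1.45 ± 0.40, 0.033, and -1.86 ± 0.54, 0.032). Rnf128 was at 2.64, 2.77 and 2.12 CPM in Treg PD-1+ cells, below each of the CD4 PD-1+ values, and Cblb was at 202, 323 and 346 CPM, below the CD4 PD-1+ value of the same library in 3 of 3. The thinned share of cells with a Cblb UMI did not separate the classes, at 48.0% in Treg PD-1+ against 51.9% in CD4 PD-1+ cells (lower in 2 of 3 libraries) and 49.3% in Treg PD-1- against 49.2% in CD4 PD-1- cells. Dgka, Dgkz and Itch did not pass. With 3 of 6 genes called in each stratum, the share of all genes called was 6.35% among PD-1+ and 10.7% among PD-1- cells. These comparisons use the same CD4 sums as those of CD4 with CD8 cells.

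The Treg calls rested on the libraries to different degrees. For Izumo1r among PD-1+ cells the call was lost without replicate 2 (0.61, adjusted p = 0.20) or replicate 3 (0.73, 0.13), and among PD-1- cells it passed without any one of the libraries. The Cblb calls were lost without replicate 2 (adjusted p = 0.29 among PD-1+ and 0.24 among PD-1- cells) or replicate 3 (0.15 and 0.13), under library totals in place of TMM scaling (0.080 and 0.25) and with the study's cell filter (0.16 and 0.34), and among PD-1- cells also after thinning (0.26). For Rnf128, leaving out replicate 2 gave 0.30 in both strata and leaving out replicate 3 gave 0.32 and 0.12, and among PD-1- cells leaving out replicate 1 gave 0.060. Among PD-1+ cells the Rnf128 call was also lost when PD-1+ required 2 Pdcd1 UMIs (-1.23, 0.12). Cells with a Cd79a UMI were most frequent in Treg, and they were left out only together with the deepest 5% of cells. Izumo1r was at 3.31 CPM in B cells. With likely doublets left out (T cells with a Cd79a UMI and the deepest 5% of each library) its difference was 0.96 (adjusted p = 0.00011) among PD-1+ and 1.45 (3.2e-07) among PD-1- cells. Without those cells Cblb among PD-1+ cells no longer passed (-0.27, 0.091), nor did Rnf128 among PD-1- cells (-1.24, 0.22).

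**Figure D3:**
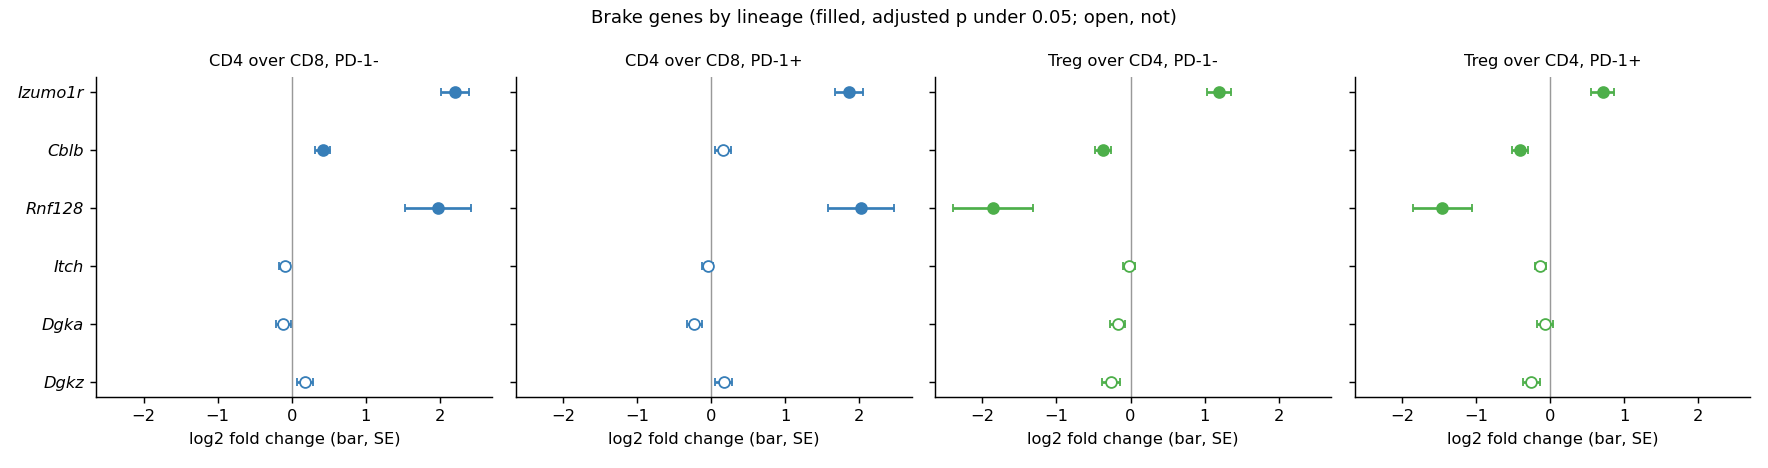
Fitted log2 fold changes of the 6 genes (points, with bars of 1 SE) for CD4 over CD8 T cells and for Treg over CD4 T cells, each in PD-1- and PD-1+ cells. The vertical line marks no difference, and filled points an adjusted p under 0.05. Izumo1r lies above 0 in all 4 comparisons, Rnf128 changes side between them, and Itch, Dgka and Dgkz stay within 0.26 of 0.

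In the main analysis the kinase gene Dgka alone of the 6 passed between PD-1+ and PD-1- cells, and it was lower in PD-1+ cells. By thinned share, Cblb in CD8 (11.1 percentage points) and Izumo1r in CD4 T cells (6.15) differed by more than Dgka did. Both were higher in PD-1+ cells. CD4 PD-1+ cells held 76.9, 88.4 and 92.7 CPM of Dgka against 105, 107 and 110 in CD4 PD-1- cells, and the groups did not overlap. The fitted change was -0.49 ± 0.10 (adjusted p = 0.0018). In CD8 T cells Dgka was at 69.3, 110 and 99.6 CPM in PD-1+ and at 88.9, 114 and 119 CPM in PD-1- cells, lower in 3 of 3 libraries although the groups overlapped, with a fitted change of -0.38 ± 0.10 (0.017). In Treg the values were 66.1, 84.5 and 95.2 CPM in PD-1+ and 110, 105 and 102 CPM in PD-1- cells, again apart and of like size (-0.38 ± 0.11), but the adjusted p was 0.18. By edgeR 0 of 6 genes passed in Treg (2 at an unadjusted p under 0.05, and 1, Dgka, by DESeq2). Only 0.578% of all genes tested passed in Treg, against 15.8% in CD4 and 13.8% in CD8 T cells, so that 1 of 6 genes called in CD4 and in CD8 T cells was close to the share of all genes.

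Fitted changes are centred on the typical gene of the comparison, and CPM values are not, so the scaling bears on the direction of small changes. With library totals the median of all genes lay at 0.17 in CD4 and 0.17 in CD8 T cells. The genes called higher and lower numbered 818 and 873 in CD4 T cells with TMM scaling and 2024 and 445 with totals, and in CD8 T cells 678 and 804 against 1728 and 428. Dgka kept its direction with totals, at -0.32 in CD4 (adjusted p = 0.037) and -0.20 in CD8 T cells (0.21). Leaving out replicate 2 or replicate 3 ended its call in CD4 (adjusted p = 0.065 and 0.081) and in CD8 T cells (0.11 and 0.27). The thinned share of cells with a Dgka UMI was also lower in PD-1+ CD4 (-2.27 ± 1.87 percentage points) and CD8 T cells (-1.88 ± 0.81). This held in 3 of 3 libraries each (exact sign-flip p = 0.25). In Treg the share did not follow the fitted change, at -0.81 ± 3.03 points and higher in PD-1+ cells in 2 of 3 libraries. Without cells carrying a Mki67 or Top2a UMI the Treg difference was 0.42 ± 1.54 points. The fit of thinned cells ended the call in CD8 T cells (-0.36, adjusted p = 0.082), and without cells carrying a Mki67 or Top2a UMI the CD8 share was lower in 2 of 3 libraries.

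Izumo1r was higher by CPM in PD-1+ than in PD-1- CD4 T cells in replicates 2 and 3 and level in replicate 1. It was at 166 against 169 CPM in replicate 1, at 86.4 against 61.7 in replicate 2 and at 105 against 60.1 in replicate 3. Over the 3 libraries it did not pass in CD4 (0.25 ± 0.16, adjusted p = 0.33) or CD8 T cells (0.60 ± 0.22, 0.087). Without replicate 1 the difference was 0.46 (0.0013) in CD4 and 1.02 (0.00036) in CD8 T cells. Without the cells that carried a Mki67 or Top2a UMI it was 0.50 (0.0029) and 0.89 (0.0012) over all 3 libraries. Of 13 alternatives Izumo1r passed in 5 in CD4 and in 6 in CD8 T cells. In CD4 T cells the others were the study's cell filter, likely doublets left out and thinning to 2000 UMIs. In CD8 T cells they were library totals, DESeq2, no count filter and likely doublets left out. In Treg the difference was -0.23 ± 0.16 (adjusted p = 0.71). By thinned share, CD4 PD-1+ cells exceeded CD4 PD-1- cells by 6.15 ± 1.64 percentage points, in 3 of 3 libraries (exact sign-flip p = 0.25). The same difference was 2.20 ± 2.12 points in CD8 T cells, higher in 2 of 3, and -0.41 ± 4.34 in Treg.

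**Figure D4:**
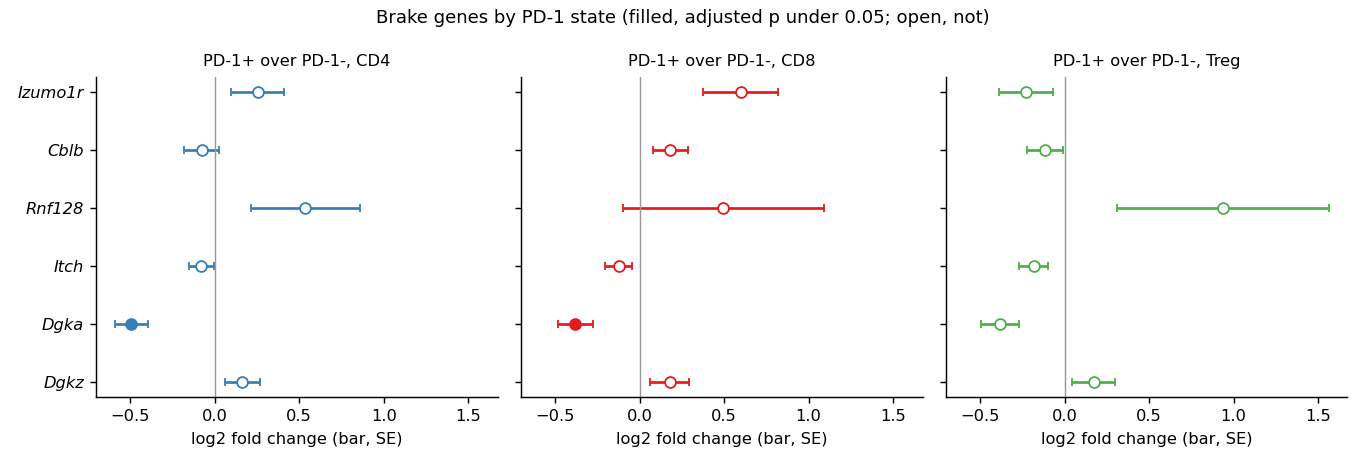
Fitted log2 fold changes of the 6 genes (points, with bars of 1 SE) in PD-1+ over PD-1- cells of the CD4, CD8 and Treg classes. The vertical line marks no difference, and filled points an adjusted p under 0.05. Dgka lies below 0 in all 3 lineages, at -0.49, -0.38 and -0.38, and the widest bars belong to Rnf128.

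The ligase genes and Dgkz did not pass between PD-1 classes in the main analysis. Cblb was at 239, 346 and 374 CPM in CD8 PD-1+ cells, against 239, 252 and 255 CPM in CD8 PD-1- cells, level in replicate 1 and higher in replicates 2 and 3 (0.18 ± 0.11, adjusted p = 0.30). It passed in 4 of 13 alternatives, namely without replicate 1 (0.31, 0.0026), without likely doublets, after thinning to 2000 UMIs and without cycling cells. The thinned share of CD8 cells with a Cblb UMI was 48.6% among PD-1+ and 37.5% among PD-1- cells, higher by 11.1 ± 5.18 percentage points and in 3 of 3 libraries, with 25.8% in B cells. Rnf128 was at 9.61, 6.31 and 5.83 CPM in CD4 PD-1+ cells against 5.47, 4.61 and 3.09 in CD4 PD-1- cells. It was higher in 3 of 3 libraries (0.54 ± 0.32, adjusted p = 0.32) and passed in 0 of 11 alternatives. These values rest on 20 to 48 UMIs per class and library.

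Dgkz, the other kinase, differed between libraries in every T class. It was at 94.7, 40.2 and 39.3 CPM in CD4 PD-1+ cells and at 87.3, 27.7 and 30.9 CPM in CD4 PD-1- cells, higher in 3 of 3 libraries (0.16 ± 0.10, adjusted p = 0.33). Of 13 alternatives Dgkz passed there in 1, without likely doublets (adjusted p = 0.035). In B cells it was at 22.0, 17.5 and 19.4 CPM, where replicate 1 was close to the others. Itch was the most even of the 6, with class means between 65.2 and 72.2 CPM over the T classes and 63.7 CPM in B cells. The PD-1 difference was compared directly between CD4 and CD8 T cells, and by edgeR none of the 6 genes differed (0 of 6, also at an unadjusted p under 0.05, and 0 by DESeq2), where 0.0186% of all genes passed. For Izumo1r the difference between lineages was -0.34 ± 0.27 (adjusted p = 0.95).

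Cells with and without an Izumo1r UMI were then compared within a class, to see which of the other 5 genes went with it. Izumo1r+ cells were deeper (a median of 5150 against 4102 UMIs in CD4 PD-1- cells of replicate 1, and 7698.5 against 5946.5 in replicate 2), so shares were taken at 2000 UMIs. In CD4 PD-1- cells a Cblb UMI was found in 54.0% of Izumo1r+ and 48.1% of Izumo1r- cells, higher by 5.95 ± 4.07 percentage points, and a Dgka UMI in 22.9% and 18.04%, higher by 4.83 ± 3.81, each in 3 of 3 libraries. In CD4 PD-1+ cells Rnf128 was found in 2.53% of Izumo1r+ and 1.57% of Izumo1r- cells (0.96 ± 0.60 points, 3 of 3 libraries), while Cblb differed by 0.92 ± 6.33 points. In Treg, Dgka was higher by 3.47 ± 2.49 points in 3 of 3 libraries. These gaps depended on the setting. Thinned to 1000 UMIs, Dgka in CD4 PD-1- cells turned to -0.98 points, lower in 3 of 3 libraries, and Cblb there was at 0.72 (2 of 3). In Treg the Dgka gap was -0.22 points at 1000 UMIs and -0.09 with the study's cell filter, and in CD4 PD-1+ cells the Rnf128 gap was 0.73 points at 1000 UMIs (2 of 3) and -0.39 with that filter (1 of 3). Without cells carrying a Mki67 or Top2a UMI, Cblb in CD4 PD-1- cells was higher in 3 of 3 libraries (5.58 points), and the others in 2 of 3, at 4.26 points for Dgka in CD4 PD-1- cells, 0.82 for Rnf128 in CD4 PD-1+ cells and 5.08 for Dgka in Treg. All these sign-flip tests are at their smallest p of 0.25 or above it.

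In the fit of summed UMIs, which scales by the whole sum, Dgkz was the only one of the 5 genes to pass, in CD4 PD-1- cells (0.39 ± 0.12, adjusted p = 0.042), where 12.2% of 10284 genes passed. It did not pass without replicate 1 (0.34, 0.16), replicate 2 (0.56, 0.051) or replicate 3 (0.26, 0.49), and after thinning to 2000 UMIs it was 0.22 (0.73). In the same fit Rnf128 was at 0.96 ± 0.34 (0.070) and Dgka at -0.18 (0.14), the latter opposite in sign to its thinned share. In CD4 PD-1+ cells 0 of 5 genes passed by edgeR (0 at an unadjusted p under 0.05, 0 by DESeq2), with 0.263% of all genes passing, and in Treg 0 of 5 passed (1 at an unadjusted p under 0.05, 0 by DESeq2), with 0.885% of all genes passing.

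Thinned to 2000 UMIs, single cells rarely held UMIs of several of the 6 genes, and such detection depends on depth. Not thinned, a Cblb UMI was found in 89.3% of Izumo1r+ and 83.7% of Izumo1r- Treg PD-1+ cells. At 2000 UMIs these shares were 49.3 and 46.7%. The number of the 6 genes per cell was not counted at full depth. At 2000 UMIs, 12.7, 5.69 and 6.25% of CD4 PD-1+ cells and 15.4, 3.90 and 7.05% of Treg PD-1+ cells had UMIs of 3 or more of the genes, against 6.07, 3.69 and 1.93% of CD8 PD-1+ cells and 0.834, 0.449 and 0.226% of B cells. Replicate 1 was the highest in each class. At that depth no UMI of any of the 6 was seen in 19.6 to 40.98% of the T cells of a class and library.

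The genes around these 6 were read from 4 lists. The list of anergy-linked surface and transcription genes comes first. In CD4 T cells 11 of its 21 genes were higher and 2 lower in PD-1+ cells (median 0.57, against -0.01 for all genes, of which 7.62% were higher and 8.13% lower). Those higher included the inhibitory receptor genes Lag3 (1.30 ± 0.25), Tigit (1.30 ± 0.24) and Ctla4 (0.57), the Helios gene Ikzf2 (1.28 ± 0.26) and Nt5e, the partner of Izumo1r on anergic cells (0.85 ± 0.18). Nt5e was at 74.0, 74.2 and 78.0 CPM in CD4 PD-1+ and at 53.3, 34.8 and 29.7 CPM in CD4 PD-1- cells, and the groups did not overlap. Lower were Tob1, a restraint on proliferation (-0.73), and Tle4, a corepressor (-0.62). Leaving out replicate 1 gave 12 higher and 2 lower, but leaving out replicate 2 left 1 and 1, and leaving out replicate 3 left 4 and 1.

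In CD8 T cells 10 genes of this list were higher and 3 lower in PD-1+ cells (4 and 1 without replicate 2, 5 and 2 without replicate 3), with a median of 0.45, where 6.32% of all genes were higher and 7.49% lower. In Treg none passed by edgeR (0 of 21, with 4 at an unadjusted p under 0.05 and 0 by DESeq2), and without replicate 1 there were 3 higher. Izumo1r+ CD4 PD-1- cells, which hold no Pdcd1 UMI by their gate, had 10 genes higher and 3 lower than Izumo1r- cells of the class, with a median of 0.64, where 7.01% of all genes were higher and 5.22% lower. Lag3 (1.65 ± 0.24), Cd200, an inhibitory ligand (1.63 ± 0.19), Ikzf2 (1.51 ± 0.21), Nrp1 (1.35 ± 0.23), Nt5e (1.34 ± 0.16) and Ctla4 (1.33 ± 0.13) led it. Between 7 and 10 genes were higher with any one library left out. In Izumo1r+ CD4 PD-1+ cells 0 of 21 passed by edgeR, with 6 at an unadjusted p under 0.05 and 0 by DESeq2.

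Markers of other T cell states moved with these splits. Tox2 (1.39, adjusted p = 0.0001), Il21 (1.05, 0.036), Sh2d1a (0.75, 0.0028) and Bcl6 (0.70, 0.013), genes of follicular and peripheral helper T cells, were higher in CD4 PD-1+ cells. Cxcr5, of the same kind, did not pass there (0.26, 0.21). In Izumo1r+ CD4 PD-1- cells Il21 (1.94, 0.0021), Tox2 (1.00, 0.0063), Sh2d1a (0.87, 0.00043) and Cxcr5 (0.50, 0.043) were higher, and Bcl6 (0.38, 0.15) did not pass. Of the Treg markers, Foxp3 was 0 in both by the gate, and Ikzf2 and Ctla4 were higher in both, as given above. Il2ra (0.32, 0.52) and Tnfrsf18 (0.16, 0.37) did not pass in CD4 PD-1+ cells. Nor did Il2ra (0.94, 0.13) and Tnfrsf18 (0.21, 0.085) in Izumo1r+ CD4 PD-1- cells. Treg without a captured Foxp3 UMI were not set apart from these CD4 cells. Of the cell cycle genes, Mki67 was higher by 1.41 (0.00014) and Top2a by 0.80 (0.013) in CD4 PD-1+ cells, and Pcna did not pass (0.11, 0.61). In Izumo1r+ CD4 PD-1- cells Mki67 (1.17, 0.073), Top2a (0.57, 0.26) and Pcna (0.05, 0.85) did not pass. In CD8 PD-1+ cells Tox2 (1.41, 0.00053), Bcl6 (0.71, 0.028), Sh2d1a (0.71, 0.0061) and Mki67 (0.81, 0.014) were higher too. Il21 (0.31, 0.89), Cxcr5 (0.015, 0.98), Top2a (0.49, 0.16) and Pcna (0.11, 0.62) did not pass there. The part of these markers in the results for the 6 genes was not tested.

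**Figure D5:**
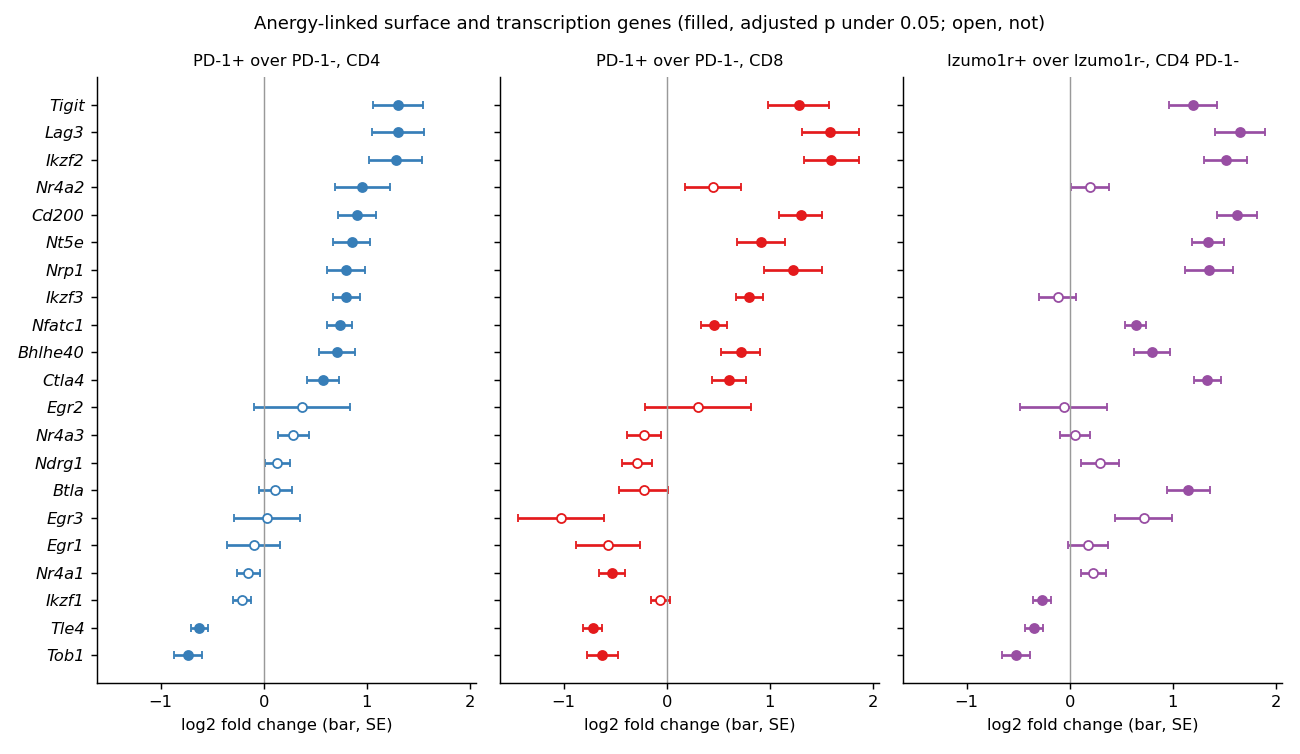
Fitted log2 fold changes (points, with bars of 1 SE) of the 21 anergy-linked surface and transcription genes for PD-1+ over PD-1- CD4 T cells, PD-1+ over PD-1- CD8 T cells and Izumo1r+ over Izumo1r- CD4 PD-1- cells. The vertical line marks no difference, and filled points an adjusted p under 0.05. Lag3, Ikzf2 and Nt5e lie well above 0 in all 3 comparisons and Tob1 and Tle4 below it.

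Among the 14 of 15 E3 ligase and adaptor genes that could be tested, Ndfip1, which encodes an adaptor that activates Itch, was higher in PD-1+ CD4 cells. It was at 737, 651 and 639 CPM in CD4 PD-1+ and at 586, 415 and 372 CPM in CD4 PD-1- cells, without overlap (0.42 ± 0.07, adjusted p = 0.0006). Wwp1, a ligase of the Itch family, was lower (-0.45 ± 0.11, 0.0056). These 2 of 14 genes were no more than the 15.8% of all genes called in this comparison. In CD8 T cells 2 genes were higher (Ndfip1 and Ndfip2, 0.34 and 0.35) and 3 lower (Wwp1, Dtx1 and Nedd4l), where 6.32% of all genes were higher and 7.49% lower, and in Treg none passed by edgeR (2 at an unadjusted p under 0.05, 1 lower by DESeq2). Ndfip1 was also higher in CD4 than in CD8 T cells, by 0.36 among PD-1+ and 0.27 among PD-1- cells, and in Izumo1r+ CD4 PD-1- cells, by 0.48. The ligase gene Nedd4 was lower in CD4 than in CD8 T cells (-1.28 among PD-1+ and -1.59 among PD-1- cells). No gene of the list passed between CD4 and CD8 T cells without replicate 2 or without replicate 3. The list's calls in CD4 and CD8 PD-1+ cells were fewer without replicate 2 (1 higher in CD4 and none in CD8) and without replicate 3 (0 in both).

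Of the diacylglycerol kinase list, 7 of 10 genes could be tested. Prkcq, which encodes the diacylglycerol-activated protein kinase C theta, was lower in PD-1+ cells of all 3 lineages (-0.30 ± 0.09 in CD4, adjusted p = 0.025, -0.37 ± 0.10 in CD8, 0.015, and -0.50 ± 0.11 in Treg, 0.049). With library totals, or without replicate 2 or 3, no gene of the list was called lower in any of these. Of all genes 8.13% were lower in PD-1+ cells in CD4, 7.49% in CD8 and 0.429% in Treg. CD4 exceeded CD8 T cells in Dgkh, another kinase of the family (1.52 ± 0.21 among PD-1+ and 1.26 among PD-1- cells), in Rasgrp1, a diacylglycerol-activated exchange factor for Ras (1.16 and 1.10), and in Prkcq (0.39 and 0.31). Of all genes 8.44% were higher in CD4 than in CD8 T cells among PD-1+ and 7.34% among PD-1- cells. Dgkh was at 15.9, 21.0 and 29.3 CPM in CD4 PD-1+ and at 4.68, 8.77 and 7.95 CPM in CD8 PD-1+ cells, without overlap, and 2 genes of the list still passed without replicate 2 or without replicate 3. Among PD-1+ cells the same 3 genes were lower in Treg than in CD4 cells (Prkcq -0.90, Rasgrp1 -0.82 and Dgkh -0.68), and 1 passed without replicate 2 or without replicate 3. Of all genes 3.03% were lower there. Among PD-1- cells 1 of the 7 genes was lower in Treg, where 5.2% of all genes were lower.

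All 21 phosphatases and proximal brakes were tested. In CD4 T cells 6 were higher in PD-1+ cells, namely Spry1, a Ras pathway inhibitor (1.11), Ubash3b, a phosphatase of receptor-proximal kinases (1.10), Cd6 (0.64), Cd5 (0.57), Sla (0.57) and Ptpn22 (0.33), and 2 were lower, the adaptor genes Pag1 (-0.74) and Sit1 (-0.48), beside the 7.62% of all genes that were higher and 8.13% lower. Without replicate 2 or replicate 3 the counts were 0 higher and 1 lower, and without replicate 1 they were 9 and 3. In CD8 T cells 4 were higher and 3 lower (0 and 2 without replicate 2 or replicate 3; of all genes 6.32% and 7.49%), and in Treg none passed by edgeR (3 at an unadjusted p under 0.05, 0 by DESeq2). In Izumo1r+ CD4 PD-1- cells 5 were higher and 2 lower (3 and 1 without replicate 2, 3 and 0 without replicate 3; of all genes 7.01% and 5.22%). The folate receptor paralogs Folr1 and Folr2 were too low to be tested.

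The genes whose levels ran most like each of the 6 over the 18 sums of T classes and libraries are given as a description, since those sums share libraries and depth. For Izumo1r they were Tiam1 (Pearson r = 0.989 of log2 CPM), Cdkn1a (0.955), Tnfrsf4 (0.952), Itm2c (0.951) and Matn2 (0.941). For Rnf128 they were Cacna1d (0.929), Inafm2 (0.899) and Ces2c (0.863), for Cblb Cir1 (0.903), Fyb (0.897) and Abcf3 (0.895), and for Dgka Npc2 (0.936), Heatr5a (0.925) and Tnrc6b (0.916). For Itch they were Usp22 (0.905), Wdr44 (0.903) and Rundc3b (0.902). For Dgkz they were Trir (0.962), Ezh2 (0.959) and Eml4 (0.958), and once each library was centred on its own mean these fell to 0.579, 0.568 and 0.729, whereas Tiam1 stayed at 0.989 for Izumo1r.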

How the data were processed

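The authors deposited raw UMI counts per gene and cell for 3 libraries, made with Cell Ranger 6.0.1 on mm10, with no normalization or cell type annotation. Cells with at least 1000 UMIs and under 10% mitochondrial UMIs were gated on raw counts as described. Cells meeting both the CD8 and the Treg rule were counted as Treg. No doublets were removed, and an alternative left out T cells with a Cd79a UMI and the top 5% by depth. UMIs were summed per class and library. Since 1 pool of mice gave all classes of a library, classes are paired by library. Sums were fitted with edgeR 4.0.16 (R 4.3.3; filterByExpr, TMM, quasi-likelihood F test, library as block) at an adjusted p of 0.05, with gate genes untested. The SE is the log2 fold change divided by the square root of F. The code was tested on simulated data. DESeq2 1.42.0 was an alternative. Shares used cells thinned to 2000 UMIs and exact two-sided sign flips. Depth per class and library had medians between 4275.5 and 11878 UMIs per cell. The p-values of the blocked fits set differences between classes against the variation that remains once the library block is taken out. They rest on 3 libraries only, from experiments that the labels do not tell apart. Genes named were the 6 members, listed pathway genes and the genes of highest correlation. Members and lists were chosen with earlier results of these data known. The alternatives without cycling cells and with library totals were chosen after seeing the data.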

Additional observations from a re-analysis of the deposited data

How the results depend on the processing

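Under the alternatives, 310 fitted changes of the 6 genes kept direction and side of the threshold, 47 lost the call, 17 gained it and 8 reversed. The changes followed were those called in the main analysis, those of Izumo1r between T classes and some others chosen from those above. Not every comparison of the 6 genes is among them. The reversed values were those of Itch in T over B cells and of Izumo1r between PD-1 classes of Treg (0.091 with the study's cell filter). For Itch they were 0.089 with library totals, 0.014 without the count filter and 0.016 without replicate 1. They were also 0.043 with the study's cell filter, 0.021 without likely doublets, 0.038 thinned and 0.035 without cycling cells. Without replicate 2 or replicate 3 Itch kept its sign, the lower value being -0.048. For the counts of genes called, the order here is PD-1 in CD4, CD8 and Treg (1691, 1482 and 62 as reported), CD4 over CD8 in PD-1+ and PD-1- cells (1774 and 1570), Treg over CD4 in the same strata (681 and 1151), the difference of PD-1 differences (2), the Izumo1r splits of CD4 PD-1+, CD4 PD-1- and Treg (27, 1258 and 91) and T over B (6052). With 1 library left out, these ranged over 337 to 2308, 361 to 1787, 0 to 232, 601 to 1959, 524 to 1831, 149 to 972, 279 to 1502, 0 to 116, 2 to 88, 316 to 1544, 0 to 354 and 4135 to 7531, and the highest of each came without replicate 1. Without the library block, that is with no replicate block, the counts before T over B were 179, 193, 0, 510, 379, 87, 186, 1, 0, 132 and 0. The study's cell filter gave 748 for PD-1 in CD8, 25 in Treg, 512 and 598 for CD4 over CD8, 439 and 715 for Treg over CD4, 12 for the difference, and 4 and 680 for the CD4 splits. Thinning gave 871 and 39 for PD-1 in CD8 and Treg, 914 and 923 for CD4 over CD8, 9 for the difference, and 6, 362 and 9 for the splits. Without the count filter the counts were 290 for PD-1 in Treg, 1061 for Treg over CD4 in PD-1+ cells, 174 for the difference, and 221 and 378 for the splits of CD4 PD-1+ and Treg. DESeq2 gave 109 for PD-1 in Treg, 26 for the difference and 183 for the Treg split. Leaving out likely doublets gave 34 for PD-1 in Treg and 24 for the difference, leaving out cycling cells 21 for the difference and library totals 1. The number of genes tested differed as well. In the main analysis it was 10732 in the T class fits and 10284 in the splits. It was 7124 and 6254 with the study's cell filter, and 7699 and 5504 after thinning. Without the count filter it was 19845 and 19289. The cause of the shifts in genes called was not tested. Rnf128 fell under the count filter in the T class fits with the study's cell filter and after thinning, so it has no value there, and with 0 to 48 UMIs per class and library its shares are limited by depth.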

Other observations

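Replicate 1 differed from the other libraries in ways that the 6 genes shared unequally. Against the mean of replicates 2 and 3, on the log2 scale of CPM over the 6 T classes, Izumo1r was higher by 0.48 to 1.85 and Dgkz by 0.80 to 1.54, Cblb ran from -0.72 to 0.10, Dgka from -0.59 to 0.09 and Itch from -0.31 to -0.06. Rnf128, the least captured of the 6, ran from -1.31 to 0.59. In B cells Izumo1r was higher by 0.89 and Dgkz by 0.24. The cell cycle genes Top2a (79.1 to 260 CPM in the T classes of replicate 1, 10.98 to 29.4 in replicate 2 and 16.1 to 38.4 in replicate 3) and Pcna (187 to 315, 101 to 151 and 98.1 to 116 CPM) were high in the same library. With every cell carrying a Mki67 or Top2a UMI left out, the thinned share of CD4 PD-1+ cells with a Dgkz UMI was 20.6, 7.41 and 7.86%, against 19.9, 7.05 and 8.33% with them, and that for Izumo1r was 34.4, 14.7 and 16.7%. Over the T classes, the share in replicate 1 divided by the mean of the other libraries ran from 1.97 to 3.84 for Dgkz with those cells and from 1.95 to 3.83 without them, rising in CD4 PD-1+ (2.59 to 2.70) and CD8 PD-1+ cells (2.89 to 3.20) and falling in the other T classes, and for Izumo1r from 1.39 to 4.56 and from 1.46 to 4.43. Their part in the gap was not tested otherwise. Of the 161 genes more than 2-fold higher in replicate 1 in all 6 T classes, 78 were so in B cells too, and 59 genes were more than 2-fold lower in all 6.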
